A study of Mus musculus with 2 samples.

Results

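Neutrophil granule and calprotectin genes were followed by name in single leukocytes of mouse melanomas. The 10 members were Mpo and Elane of the azurophil granules, Camp, Ngp, Ltf and Lcn2 of the specific granules, the matrix metalloproteinases Mmp8 and Mmp9, and the calprotectin pair S100a8 and S100a9. All 10 were found by symbol among the 27998 genes of the matrices. YUMM1.7 cells, a mouse melanoma line, were grown under the skin of mice carrying human APOE4 or human APOE2 in place of the mouse gene. Tumours were taken on day 19, and DAPI-negative CD45+ leukocytes were sorted after dissociation and a density gradient. Cells of 6 mice were pooled into 1 droplet library per genotype, so no animal can be told from another and the genotypes have no replicates. All values are unique molecular identifiers (UMIs, 1 per captured RNA 3′ end), and CPM is a gene's UMIs scaled to a total of 1000000 UMIs of the cells summed. Intervals are 95% intervals of counting error only (exact Poisson for levels, exact conditional binomial for ratios, Clopper-Pearson for shares), since cells of 1 pool are not replicates.

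Neutrophils make their granule proteins in sequence while they mature in the bone marrow. Azurophil proteins such as myeloperoxidase (Mpo) and neutrophil elastase (Elane) come first, in promyelocytes. Specific granule proteins follow in the next stages, among them the antimicrobial cathelicidin (Camp), neutrophilic granule protein (Ngp), the iron binder lactoferrin (Ltf) and the siderophore binder lipocalin 2 (Lcn2). Gelatinase (Mmp9) is packed late, and neutrophil collagenase (Mmp8) is also a late transcript in mice. S100a8 and S100a9 pair into calprotectin, which fills the cytosol of neutrophils rather than a granule. Transcripts of most granule proteins are low in circulating neutrophils, while calprotectin transcripts persist. Myeloid-derived suppressor cells (MDSC) are neutrophil-like or monocyte-like cells that dampen T cell responses in tumours. The authors gave 4 of their 26 cell type labels this name: G-MDSC 2, G-MDSC 1, M-MDSC 1 and M-MDSC 2.

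Camp, Ngp and Ltf lie in 1 stretch of chromosome 9 in the GRCm38 build, in GENCODE M21. Camp spans chr9:109847379-109849617 on the minus strand, Ngp chr9:110419747-110423012 on the plus strand and Ltf chr9:111019271-111042767 on the plus strand. Other genes lie between them, since 570 kb separate Camp from Ngp and 596 kb separate Ngp from Ltf. S100a8 (chr3:90668978-90670035, plus strand) and S100a9 (chr3:90692632-90695721, minus strand) are 22.6 kb apart. The promoters of these genes are shown because the members of each group moved together over the labels. Each runs from 250 bases before to 50 bases after the gene start in RefSeq, build GRCm38.p6. That start can differ from the GENCODE one, and most of the Camp window lies inside the GENCODE span of Camp. The windows are chr9:109849407-109849706 (minus strand), chr9:110419558-110419857 (plus), chr9:111019042-111019341 (plus), chr3:90668821-90669120 (plus) and chr3:90695672-90695971 (minus). Capitals mark TTGCNNAA, a short form of the site of C/EBP factors, which act in granulocyte development. The match was sought on both strands, 5′ to 3′.
Camp: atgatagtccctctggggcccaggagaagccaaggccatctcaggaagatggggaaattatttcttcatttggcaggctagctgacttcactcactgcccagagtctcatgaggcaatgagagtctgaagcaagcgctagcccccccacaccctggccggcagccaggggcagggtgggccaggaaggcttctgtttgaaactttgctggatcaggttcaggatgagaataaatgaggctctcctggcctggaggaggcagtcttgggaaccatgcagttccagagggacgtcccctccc
Ngp: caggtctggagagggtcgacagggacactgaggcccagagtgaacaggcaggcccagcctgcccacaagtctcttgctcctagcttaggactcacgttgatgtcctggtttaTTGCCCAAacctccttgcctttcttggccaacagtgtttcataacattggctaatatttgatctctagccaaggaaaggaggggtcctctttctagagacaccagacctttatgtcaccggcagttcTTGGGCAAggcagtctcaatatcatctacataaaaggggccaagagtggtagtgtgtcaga
Ltf: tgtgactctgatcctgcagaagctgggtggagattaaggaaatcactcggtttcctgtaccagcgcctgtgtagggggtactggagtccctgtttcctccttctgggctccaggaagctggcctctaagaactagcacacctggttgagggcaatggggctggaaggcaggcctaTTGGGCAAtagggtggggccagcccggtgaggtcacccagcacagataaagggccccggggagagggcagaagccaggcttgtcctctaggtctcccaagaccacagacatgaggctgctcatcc
S100a8: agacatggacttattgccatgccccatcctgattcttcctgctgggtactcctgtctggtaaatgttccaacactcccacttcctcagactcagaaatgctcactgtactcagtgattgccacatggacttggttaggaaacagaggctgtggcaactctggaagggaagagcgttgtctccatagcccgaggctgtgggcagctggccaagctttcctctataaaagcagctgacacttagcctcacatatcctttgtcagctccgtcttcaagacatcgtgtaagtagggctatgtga
S100a9: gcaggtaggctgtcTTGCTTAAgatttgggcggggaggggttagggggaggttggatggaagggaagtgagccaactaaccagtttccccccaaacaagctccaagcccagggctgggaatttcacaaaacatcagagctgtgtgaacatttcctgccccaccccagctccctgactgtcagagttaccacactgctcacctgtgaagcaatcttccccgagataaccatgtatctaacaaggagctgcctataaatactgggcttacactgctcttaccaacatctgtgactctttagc

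The capitalised motif stood in 10.8% of 32851 mouse promoter windows of this length. It was found in 5 of the 9 members with a window, Ngp, Ltf, Lcn2, Mmp8 and S100a9. Ngp held 2 matches, starting at bases 113 and 240 of its window, and Ltf held 1 at base 176. The looser form TTNNGNAA, which overlaps the other, stood in 40.7% of all windows and in 6 of the 9, S100a8 being the sixth. Camp, Mpo and Elane held neither form in these windows. The motifs were chosen with earlier results of these data known, and their spelling after several others were tried. The 5 of 9 beside 10.8% is therefore no test of enrichment, and a match describes the letters only.

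The APOE4 library held 5689 barcodes and 37349222 UMIs, of which 5385 barcodes carried an authors' label. The APOE2 library held 5063 barcodes and 41207514 UMIs, with 4665 labelled. The median labelled cell had 5560 UMIs in APOE4 and 7160 in APOE2. The MDSC labels held 797 APOE4 cells and 726 APOE2 cells. By label, in the order G-MDSC 2, G-MDSC 1, M-MDSC 1 and M-MDSC 2, these were 28, 126, 453 and 190 cells in APOE4, and 29, 146, 515 and 36 cells in APOE2. G-MDSC 2 cells were the deepest, with median UMIs of 5623 in APOE4 and 7278 in APOE2, against 1492 to 1781 in the other MDSC labels. The libraries shared 8 labelled barcodes, of which 0 were MDSC in both.

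The labels were checked against 10 neutrophil markers, among them the G-CSF receptor Csf3r and the chemokine receptor Cxcr2. All 10 were detected, by at least 1 UMI in the label, in G-MDSC 2 and G-MDSC 1 of both libraries. In M-MDSC 1 and M-MDSC 2, 9 or 10 were. Ly6g had only 3 and 0 UMIs in M-MDSC 1 and 6 and 0 in M-MDSC 2, in APOE4 and APOE2. In G-MDSC 2 it had 177 and 185. The summed level of the 10 markers was 17789 to 29674 CPM over the 8 label and library pairs, but the single markers were uneven. In G-MDSC 2, Retnlg alone gave 21475 of 28351 CPM in APOE4 and 17352 of 24684 CPM in APOE2. Of the 10, 2 (Ly6g and Retnlg) were at least 2-fold higher and 8 at least 2-fold lower in G-MDSC 2 than in G-MDSC 1, in both libraries. Over all genes these shares were 12.6% and 31.9% in APOE4, and 15.1% and 29.9% in APOE2. The 7 monocyte markers (Ly6c2, Ccr2 and others) summed to 1661 and 2141 CPM in G-MDSC 2, 525 and 219 CPM in G-MDSC 1, 277 and 184 CPM in M-MDSC 1, and 909 and 289 CPM in M-MDSC 2, in APOE4 and APOE2. The like sums in G-MDSC 2 hid an unlike make-up. Ly6c2 gave 1608 of the 1661 CPM in APOE4 and 883 of the 2141 CPM in APOE2. Fn1 gave 5.29 CPM in APOE4 and 727 CPM in APOE2. Of the 4 markers measured between the libraries there, 3 were at least 2-fold lower in APOE4, as 7.24% of genes were. In the label Monocytes 1 the monocyte markers summed to 6378 and 5660 CPM, and the neutrophil markers to 1262 and 1208 CPM. By these markers both M-MDSC labels were closer to the G-MDSC labels than to Monocytes 1, and they are used here only as the authors' names. The 7 macrophage markers summed to 10.6 CPM in G-MDSC 2 of APOE4 and 1018 CPM in G-MDSC 2 of APOE2. The complement genes C1qa, C1qb and C1qc gave 775 of that 1018 CPM, and 1 of the 29 APOE2 cells held 3 or more of their UMIs. Cells over 10000 UMIs numbered 2 of 28 in APOE4 and 9 of 29 in APOE2. The part of these cells in the results below was not tested beyond leaving out cells with 3 or more C1q UMIs.

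Camp, Ngp and Ltf were highest in 1 small label. Camp reached 29472 CPM (5572 UMIs) in APOE4 G-MDSC 2 and 29880 CPM (7482 UMIs) in APOE2 G-MDSC 2. Ngp reached 23813 CPM in APOE4 and 24784 CPM in APOE2. Ltf reached 8653 CPM in APOE4 and 8698 CPM in APOE2. The 3 together made up 6.19% of all UMIs of G-MDSC 2 cells in APOE4 and 6.34% in APOE2. The 2 libraries were thus nearly level for each of them inside this label.

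In the other MDSC labels the same transcripts were near the limit of detection. G-MDSC 1, with 126 and 146 cells in APOE4 and APOE2, held 0 and 2 UMIs of Camp, 20 and 17 of Ngp, and 0 and 0 of Ltf. Of the 20 Ngp UMIs in APOE4, 15 came from 1 cell. Camp was therefore at least 2377-fold higher in G-MDSC 2 than in G-MDSC 1 of APOE4, taking 3 UMIs per label as the floor for a count of 0. In APOE2, where G-MDSC 1 held 2 Camp UMIs, the ratio was 3889 (1076 to 32120). Ltf was at least 698-fold higher in APOE4 and at least 755-fold higher in APOE2 by the same floor. Ngp was 288-fold higher (186 to 472) in APOE4 and 380-fold higher (237 to 652) in APOE2. M-MDSC 1 held 1 and 2 Camp UMIs, and M-MDSC 2 held 0 and 0, in APOE4 and APOE2. For Ltf these were 14 and 19 UMIs in M-MDSC 1, and 15 and 1 in M-MDSC 2.

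Single cells gave the same picture. At least 10 UMIs of Camp, Ngp and Ltf summed were found in 24 of 28 G-MDSC 2 cells in APOE4 and in 28 of 29 in APOE2. In APOE4, 1 of 126 G-MDSC 1 cells reached that number, and 0 M-MDSC cells did in either library. Among labelled cells outside the MDSC labels, 1 APOE4 cell and 1 APOE2 cell reached it, both labelled Ki67+ CD8+ T cells. Those 2 cells held 98.7% (2571 of 2604) and 99.8% (2163 of 2168) of the summed UMIs of that label in APOE4 and APOE2. G-MDSC 2 held 80.7% of all labelled UMIs of the 3 genes in APOE4 and 87.0% in APOE2, and the Ki67+ label 17.9% and 11.9%. Low Ltf also stood in CD4+ T cells, with 49 UMIs in 16 APOE4 cells and 36 UMIs in 16 APOE2 cells, where the 3 genes together had 50 and 38 UMIs.

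**Figure D1:**
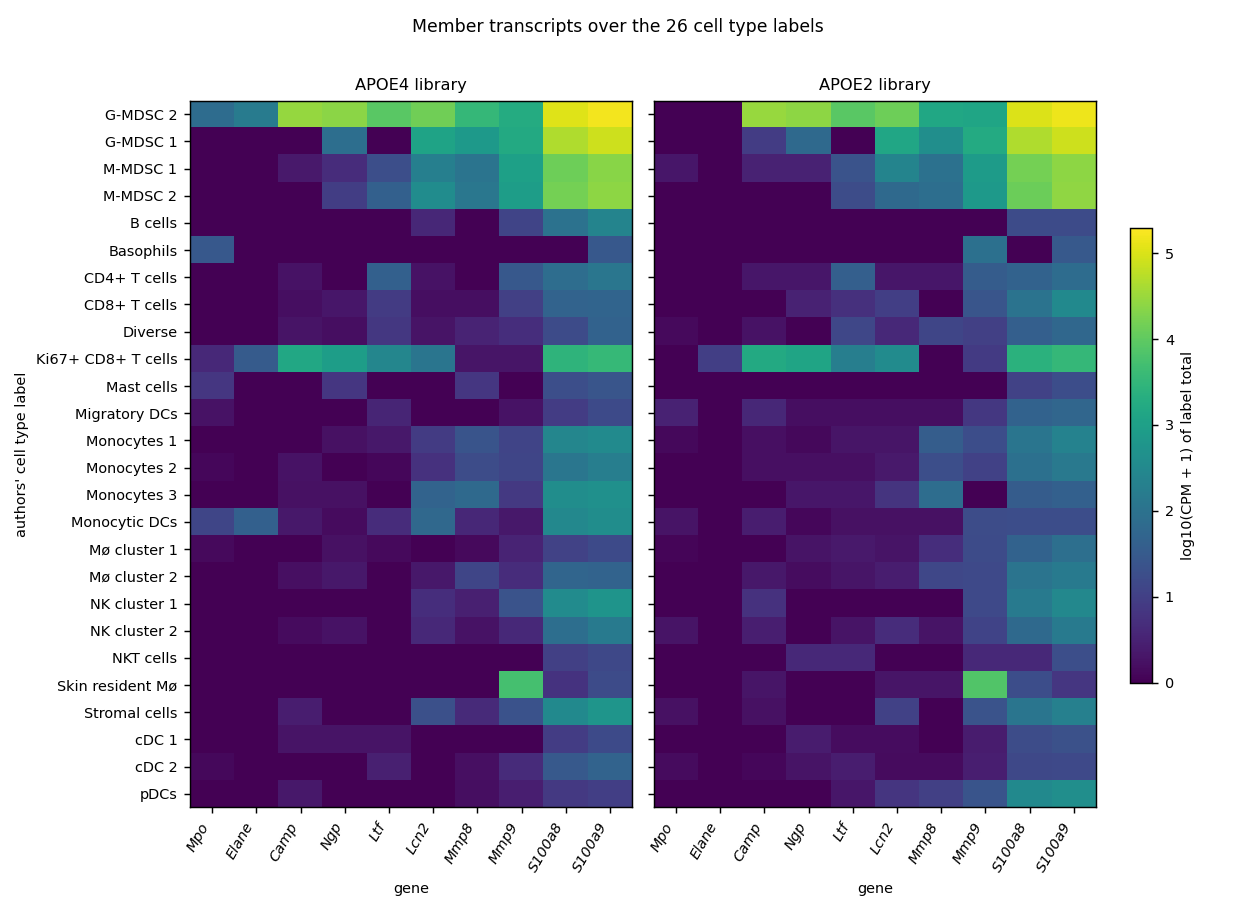
Level of the 10 members in each of the authors' 26 labels (rows), as log10(CPM + 1) of the label's summed UMIs, APOE4 library on the left and APOE2 on the right. The top 4 rows are the MDSC labels; Camp, Ngp and Ltf light up in G-MDSC 2 and the Ki67+ CD8+ T cells row, and Mmp9 in Skin resident Mø (5462 and 7198 CPM in APOE4 and APOE2).

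Azurophil transcripts stood in very few cells. Over all labelled cells, Elane had 164 UMIs in APOE4 and 6 in APOE2, and Mpo had 52 and 16. All Elane UMIs lay in 4 cells, 3 in APOE4 and 1 in APOE2. The APOE4 cell with most, labelled Monocytic DCs, held 102 Elane and 27 Mpo UMIs of 42512. It also held 172 UMIs of Prtn3 (proteinase 3) and 45 of Ctsg (cathepsin G), both azurophil proteases, but 1 of Camp and 0 of Ngp and Ltf. The APOE4 cell in G-MDSC 2 held 30 Elane, 14 Mpo and 1337 Camp UMIs of 22915, and 0 of Ctsg. The APOE4 cell in the Ki67+ label held 32 Elane, 2 Mpo and 1449 Camp UMIs of 26694, and the APOE2 cell in that label held 6, 0 and 1150 of 18877.

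The 4 cells thus ran from azurophil transcripts with almost no Camp to abundant Camp with few azurophil transcripts. All 4 held UMIs of the proliferation genes Mki67 (39, 14 and 34 in the APOE4 cells as listed, 11 in the APOE2 cell) and Top2a (43, 12, 20 and 9), and 0 of Cd3d, Cd3e and Cd3g, which make the T cell receptor complex. All 4 lacked Mmp9, and 3 lacked Mmp8. They are 4 cells of 2 pools, so neither library's number says how frequent such cells were in the tumours. The 16 Mpo UMIs of APOE2 were spread over 14 cells, and the 52 of APOE4 over 12 cells, 43 of them in the 3 with Elane.

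Lcn2 also peaked in G-MDSC 2 but reached further along the labels. Its level was 13969 CPM (2641 UMIs) in APOE4 G-MDSC 2 and 13534 CPM (3389 UMIs) in APOE2 G-MDSC 2. In G-MDSC 1 it was 1211 CPM in APOE4 and 1391 CPM in APOE2, so G-MDSC 2 was 11.5-fold higher (10.2 to 13.1) in APOE4 and 9.73-fold higher (8.73 to 10.9) in APOE2. M-MDSC 1 had 194 CPM in APOE4 and 247 CPM in APOE2. Lcn2 was thus 6.24-fold (5.12 to 7.63) and 5.63-fold (4.74 to 6.69) higher in G-MDSC 1 than in M-MDSC 1, in APOE4 and APOE2. M-MDSC 2 had 381 CPM (137 UMIs) in APOE4 and 64.1 CPM (4 UMIs) in APOE2. At least 1 Lcn2 UMI was found in every G-MDSC 2 cell, 28 of 28 in APOE4 and 29 of 29 in APOE2.

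Mmp8 and Mmp9 ran differently over the labels. Mmp8 was 3353, 723, 106 and 128 CPM in G-MDSC 2, G-MDSC 1, M-MDSC 1 and M-MDSC 2 of APOE4. In APOE2 it was 1426, 419, 91.8 and 80.1 CPM in the same labels. G-MDSC 2 was 4.64-fold higher (3.92 to 5.51) than G-MDSC 1 in APOE4, and 3.40-fold higher (2.74 to 4.26) in APOE2. Mmp9 was 1809, 1645, 1033 and 884 CPM in the 4 labels of APOE4, and 1298, 1721, 815 and 689 CPM in those of APOE2. The G-MDSC 2 to G-MDSC 1 ratio of Mmp9 was 1.10 (0.949 to 1.27) in APOE4 and 0.754 (0.652 to 0.872) in APOE2. Mmp9 was thus the flattest of the members, and its 2 highest labels were not separated by counting error in APOE4 and stood in the opposite order in APOE2.

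Outside the MDSC labels, Mmp9 was highest in Skin resident Mø, at 5462 CPM in 8 APOE4 cells and 7198 CPM in 47 APOE2 cells. That label held 34.3% of all labelled Mmp9 UMIs in APOE4 and 78.5% in APOE2. In it, Mmp8, Camp, Ngp and Lcn2 together had 0 UMIs in APOE4 and 3 in APOE2. Mmp8 was found at low levels in the labels Monocytes 1, 2 and 3, with 23.0, 15.7 and 64.3 CPM in APOE4 and 35.6, 17.7 and 76.8 CPM in APOE2, in 20 to 54 cells of each.

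**Figure D2:**
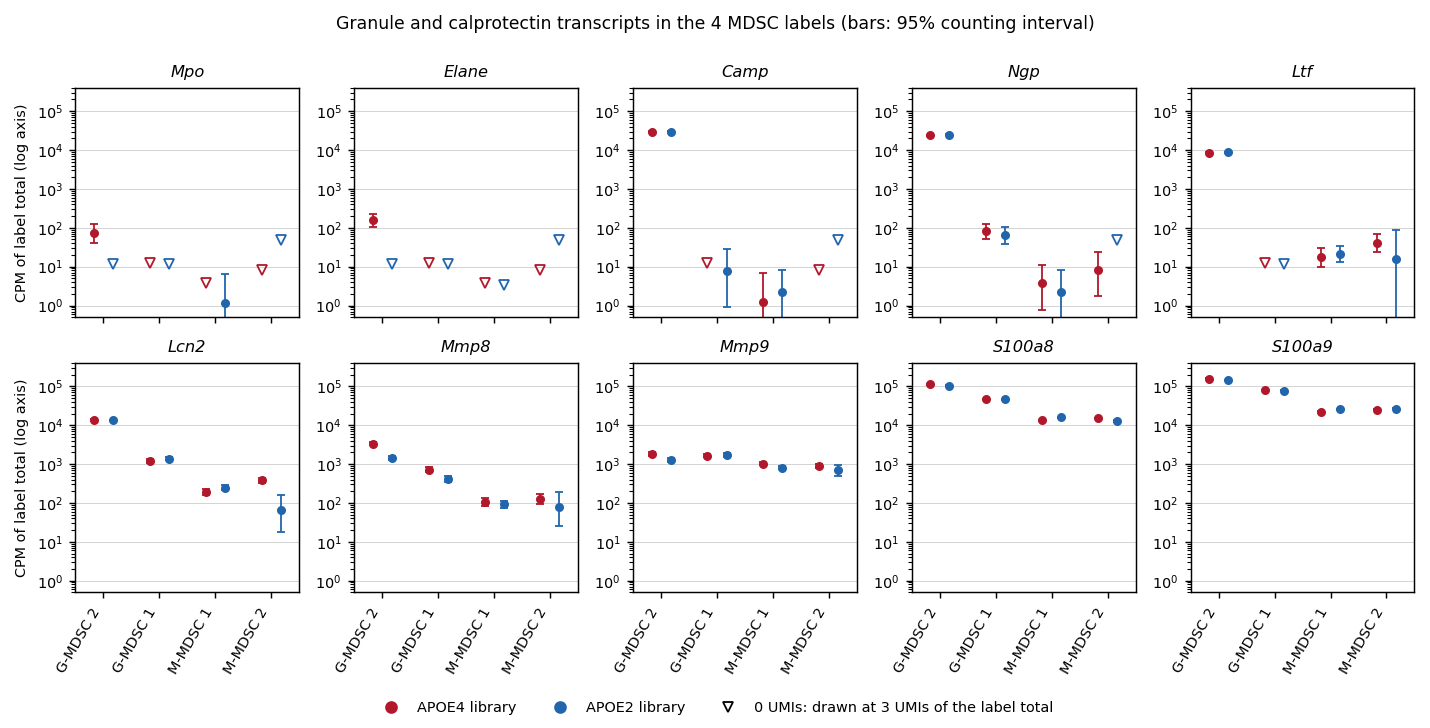
Level of each member (CPM, log axis) in the 4 MDSC labels, APOE4 red on the left and APOE2 blue on the right of each pair; bars are 95% counting intervals, and open triangles mark 0 UMIs, drawn at the level of 3 UMIs. Camp, Ngp and Ltf drop to near the floor after G-MDSC 2, Lcn2 and Mmp8 step down over 2 labels, Mmp9 stays between 689 and 1809 CPM, and S100a8 and S100a9 stay highest in every label.

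Calprotectin transcripts had the highest levels of the members in every MDSC label. S100a8 and S100a9 together made up 27.0% of all UMIs in APOE4 G-MDSC 2 and 24.9% in APOE2 G-MDSC 2. In G-MDSC 1 the share was 12.7% in APOE4 and 12.5% in APOE2. It was 3.57% and 4.15% in M-MDSC 1, and 4.03% and 3.98% in M-MDSC 2, again APOE4 and then APOE2. The pair was therefore 2.12-fold (2.09 to 2.15) and 2.0-fold (1.97 to 2.03) higher in G-MDSC 2 than in G-MDSC 1. It was 3.56-fold (3.50 to 3.62) and 3.0-fold (2.95 to 3.04) higher in G-MDSC 1 than in M-MDSC 1. M-MDSC 2 and M-MDSC 1 were close, with ratios of 1.13 in APOE4 and 0.959 in APOE2.

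The balance of the 2 genes shifted with the label. S100a9 gave 1.41 UMIs per S100a8 UMI (1.39 to 1.44) in APOE4 G-MDSC 2 and 1.38 (1.36 to 1.40) in APOE2 G-MDSC 2. In G-MDSC 1 it gave 1.70 (1.66 to 1.74) and 1.69 (1.65 to 1.73). M-MDSC 1 had 1.66 and 1.62, while M-MDSC 2 had 1.63 in APOE4 and 2.09 in APOE2, the last from 36 cells. The ratio of UMIs was thus lowest in G-MDSC 2 of both libraries. Every G-MDSC 2 and G-MDSC 1 cell held calprotectin UMIs.

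Outside the MDSC labels calprotectin came mostly from few cells. The MDSC labels held 89.1% of all labelled S100a8 and S100a9 UMIs in APOE4 and 93.1% in APOE2. Their level was 78584 CPM against 444 CPM in all other labelled cells in APOE4, a ratio of 177 (174 to 180), and 92010 CPM against 264 CPM in APOE2, a ratio of 348 (341 to 355). Of the UMIs outside, 1 Ki67+ label cell held 6196 in APOE4 and 1 held 4157 in APOE2. Without the 1% of cells with most of the summed UMIs, the log2 ratios were 10.44 in place of 7.47 in APOE4 and 10.61 in place of 8.44 in APOE2. After thinning each cell to 1000 UMIs, 92.0% to 100% of APOE4 cells and 90.3% to 100% of APOE2 cells in each MDSC label kept at least 1 calprotectin UMI. In Monocytes 1 the thinned share was 5.22% (3.22 to 7.95) in APOE4 and 6.25% (4.16 to 8.96) in APOE2, and in CD8+ T cells 2.95% (1.62 to 4.91) and 5.36% (1.99 to 11.3). Unthinned, those shares were 12.5% and 15.5% in Monocytes 1, and 6.50% and 7.96% in CD8+ T cells. In the APOE4 CD8+ T cells 1 cell gave 46.0% of the calprotectin UMIs, and in APOE2 1 cell gave 95.9%. Median depths were 6642 and 6711 UMIs in Monocytes 1, and 3456 and 3530 in CD8+ T cells.

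**Figure D3:**
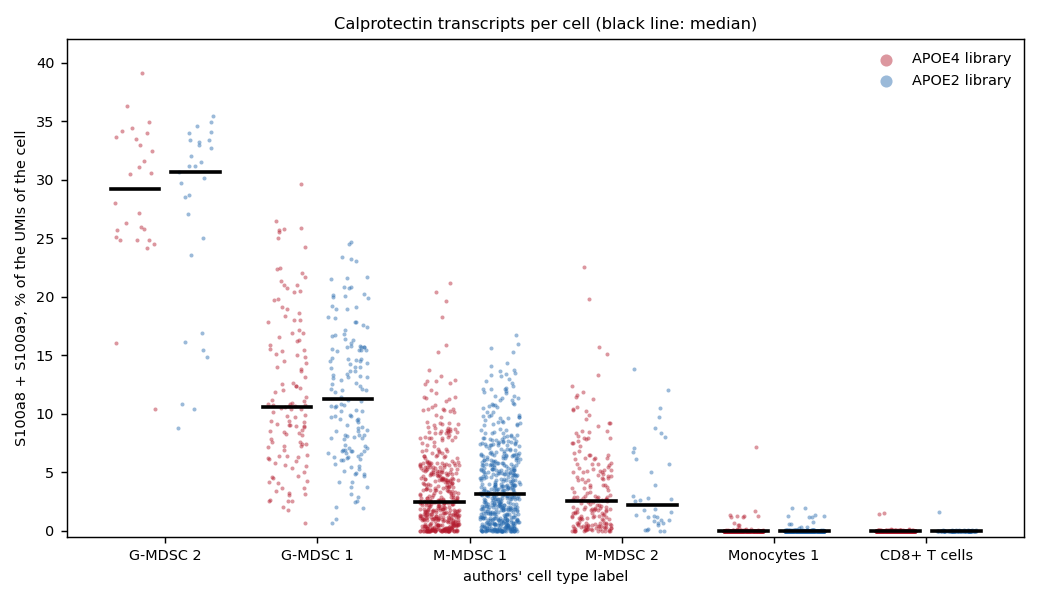
Share of each cell's UMIs from S100a8 and S100a9 (percent), 1 point per cell, APOE4 red on the left and APOE2 blue on the right of each pair; black lines are medians. The medians of G-MDSC 2 are 29.3% and 30.7%, and the 4 MDSC labels lie above Monocytes 1 and CD8+ T cells, whose medians are 0.

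Counted over members, most steps between the labels went in 1 direction. Of 9 members with at least 20 UMIs over both labels, 7 were at least 2-fold higher in G-MDSC 2 than in G-MDSC 1 of APOE4, where 12.6% of 2414 genes were. In APOE2 it was 6 of 8 members, against 15.1% of 2746 genes, and 0 members were at least 2-fold lower in either library, as 31.9% and 29.9% of genes were. From G-MDSC 1 to M-MDSC 1, 5 of 6 members were at least 2-fold higher in G-MDSC 1 of APOE4 (background 5.6% of 4483 genes) and 5 of 5 in APOE2 (background 8.96% of 4600), while 0 measured members were at least 2-fold lower, as 21.7% and 21.9% of genes were in APOE4 and APOE2. Ltf, under 20 UMIs and so not counted, ran the other way, with 0 UMIs in G-MDSC 1 and 14 in M-MDSC 1 of APOE4, and 0 and 19 in APOE2. Between M-MDSC 2 and M-MDSC 1 only Ltf was at least 2-fold higher in APOE4, 1 of 6 members (background 5.23%), from 15 and 14 UMIs. There, 14.6% of genes were at least 2-fold lower and 0 of 6 members were. In APOE2 only Lcn2 was at least 2-fold lower in M-MDSC 2, 1 of 6 (background 24.3%), and 0 of 6 were at least 2-fold higher (background 7.02%). Against all other labelled cells, 10 of 10 measured members were at least 2-fold higher in the MDSC labels of APOE4 (background 9.46%). In APOE2 it was 8 of 8 (background 9.6%). In both, 0 were at least 2-fold lower, where 56.4% and 54.9% of genes were. The 10 include Mpo (14 UMIs) and Elane (30 UMIs), all from 1 G-MDSC 2 cell. The MDSC labels held only 26.9% of the labelled Mpo UMIs and 18.3% of the Elane UMIs of APOE4. Elane from that cell is also among the 7 of 9 above. Ngp, among the 5 of 6, had 20 UMIs in G-MDSC 1 of APOE4, 15 of them in 1 cell. The authors' clustering could use these genes, so the counts describe the labels and test nothing.

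Genes known from early and late neutrophil stages also differed between the labels. The lists were chosen with earlier results of these data known, and the authors' clustering could use these genes. Their counts therefore describe the labels and test nothing. The 10 early genes other than members include Ifitm6, Wfdc21, the chitinase-like Chil3 and the annexin Anxa1. Of those measured, 10 of 10 in APOE4 and 9 of 9 in APOE2 were at least 2-fold higher in G-MDSC 2 than in G-MDSC 1. Their median log2 ratios were 3.99 and 3.57, with 0.5 added to each count. Over all measured genes with UMIs in both labels the medians were -0.47 and -0.36, with nothing added. Chil3 had 4813 CPM in APOE4 G-MDSC 2 and 4369 CPM in APOE2 G-MDSC 2, and 4.13 and 7.68 CPM in G-MDSC 1. The late list holds inflammatory genes such as the neutrophil chemoattractant Cxcl2, the cytokine Il1b and the chemokines Ccl3 and Ccl4. Of 16 measured late genes, 13 in APOE4 and 15 in APOE2 were at least 2-fold lower in G-MDSC 2 than in G-MDSC 1, where 31.9% and 29.9% of all genes were. Il1b had 2179, 16848, 28586 and 30373 CPM in G-MDSC 2, G-MDSC 1, M-MDSC 1 and M-MDSC 2 of APOE4, and 1442, 15557, 23918 and 31947 CPM in those of APOE2. Summed, the late list was 11769 CPM in APOE4 G-MDSC 2 and 9521 CPM in APOE2 G-MDSC 2, against 84698 to 107333 CPM in the M-MDSC labels.

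Other granule genes were less uniform. For all lists here the shares over all genes were 12.6% higher and 31.9% lower in APOE4, and 15.1% and 29.9% in APOE2. Of 15 measured specific, gelatinase and secretory granule genes outside the members, 6 were at least 2-fold higher and 2 at least 2-fold lower in G-MDSC 2 than in G-MDSC 1 of APOE4, and 6 and 3 in APOE2. Lysozyme (Lyz2), which macrophages also make, followed Lcn2, with 12033 and 11797 CPM in G-MDSC 2 and 1736 and 1855 CPM in G-MDSC 1. The protease inhibitor Slpi ran the other way, with 1656 and 1318 CPM in G-MDSC 2 and 4124 and 3377 CPM in G-MDSC 1. Among transcription factors, Cebpe, needed for specific granules, had 381 and 296 CPM in G-MDSC 2 and 28.9 and 23.0 CPM in G-MDSC 1. Cebpb, which supports emergency granulopoiesis, had 1756 and 3183 CPM in G-MDSC 2 and 7773 and 10494 CPM in G-MDSC 1. In each of these pairs APOE4 stands before APOE2. Of the other S100 genes, 2 of 4 measured were at least 2-fold higher in G-MDSC 2 than in G-MDSC 1 of APOE4 and 3 of 5 in APOE2. Of the receptors and inhibitors of the member proteins, 1 of 6 measured was at least 2-fold higher and 2 lower in APOE4, and 2 of 7 higher and 1 lower in APOE2.

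The 57 G-MDSC 2 cells were not alike. Camp, Ngp and Ltf together ranged over cells from 0.0434% to 15.9% of UMIs in APOE4 (median 3.89%) and from 0.119% to 12.4% in APOE2 (median 6.02%). Calprotectin varied less, from 10.4% to 39.1% in APOE4 (median 29.3%) and from 8.74% to 35.4% in APOE2 (median 30.7%). Across the 57 cells of both libraries, Spearman's rho of the share of UMIs was 0.71 for Camp with Ngp, 0.80 for Camp with Ltf and 0.56 for Camp with Lcn2. It was -0.59 for Camp with Mmp8, -0.53 for Camp with Mmp9 and 0.57 for Mmp8 with Mmp9. Camp with Mmp8 gave -0.57 over 28 APOE4 cells and -0.61 over 29 APOE2 cells. Camp with S100a9 gave 0.16. These are descriptions over cells that share a pool, a depth and the closed sum of their UMIs, and Camp-rich cells were also deeper.

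The lower metalloproteinase share stood in the cells richest in Camp, Ngp and Ltf and showed no even slope below them. The 18 cells with at least 9% of UMIs from Camp, Ngp and Ltf (7 in APOE4, 11 in APOE2) had median Mmp8 and Mmp9 shares of 0.0835% in APOE4 and 0.0475% in APOE2. The 9 cells under 1% (6 in APOE4, 3 in APOE2) had 0.800% in APOE4 and 0.460% in APOE2. Between these, the 20 cells from 1% to 5% had 0.756% in APOE4 and 0.433% in APOE2, and the 10 cells from 5% to 9% had 0.700% in APOE4 and 0.579% in APOE2. Lcn2 was 16457 and 19662 CPM in the 18 cells and 7047 and 5707 CPM in the 9 cells, APOE4 and then APOE2. It was 10558 and 8020 CPM in the cells from 1% to 5%, and 19038 and 18277 CPM in those from 5% to 9%. In APOE4 it was thus not highest in the richest cells. Median depths were 7187 and 9059 UMIs in the 18 cells, and 3989 and 4787 in the 9 cells.

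Mmp8 had no UMI in 12 of the 57 cells, 4 of 28 in APOE4 and 8 of 29 in APOE2, though these cells were deeper (median 9051 UMIs) than the 45 with Mmp8 (5423 UMIs). Summed over both libraries, the 12 cells had 56008 CPM of Camp against 17488 CPM in the 45. Chil3 was 9909 against 2076 CPM, Cebpe 674 against 173 CPM, and Mki67 230 against 3.33 CPM. Of the 32 Mki67 UMIs, 14 came from the cell with Elane. Other genes were lower in the 12 cells, with Retnlg, a resistin-like cytokine of neutrophils, at 1134 against 27482 CPM, Cxcr2 at 129 against 500 CPM and Mmp9 at 222 against 2119 CPM. S100a9 was 159657 against 146013 CPM. Split by library, Camp was 63187 against 18713 CPM in APOE4 and 52501 against 16368 CPM in APOE2.

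**Figure D4:**
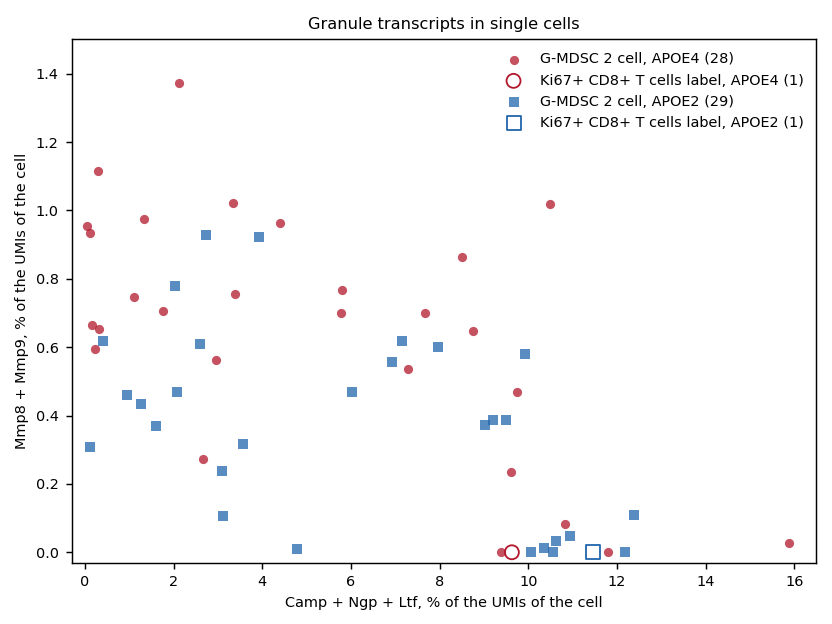
Share of UMIs from Camp, Ngp and Ltf (x axis, percent) against the share from Mmp8 and Mmp9 (y axis, percent), 1 point per G-MDSC 2 cell, with APOE4 as circles (28) and APOE2 as squares (29); open symbols are the 2 cells labelled Ki67+ CD8+ T cells. Cells at the far right mostly lie near 0 on the y axis, and the 2 open symbols lie among them.

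The genes outside the 10 members most like each pattern over the labels were ranked by Pearson's r of log2(CPM + 1) over 38 points, 19 labels with at least 50 cells in each library. Among members, Lcn2 had 0.95 with calprotectin. For calprotectin the others were Wfdc21 (0.93), Chil1 (0.87), G0s2 (0.86), Stfa1 (0.85), Rdh12 (0.83), Gm5483 (0.83), Hist1h4i (0.83) and Mrgpra2b (0.83). Stfa1 and Gm5483 belong to the stefin A family, whose copies are so alike that their counts are uncertain. For Camp, Ngp and Ltf the same labels gave Hmgb2 (0.77), Hjurp (0.74), Slc39a4, Cks2, Orc1, Asxl1, Anp32a and Ccr3 (0.64 to 0.70). G-MDSC 2 is left out there for having too few cells, and the 2 cells of the Ki67+ label then carry the pattern. With labels of at least 20 cells, a setting chosen after the data were seen, 24 labels gave Itgb2l (0.85), Fcnb (0.84), the neutrophil surface protein Ly6g (0.82), B230208H11Rik (0.80), Ceacam10 (0.78), Cebpe (0.76), Wfdc21 (0.74) and Hmgb2 (0.74). Lcn2 had 0.79 there. Of the 8, only Hmgb2 was among the 8 of the first ranking. The points share libraries and labels, and no p-value is given.

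Between the libraries, the summed MDSC cells and the single labels gave different answers. Over all MDSC cells, Camp, Ngp and Ltf were lower in APOE4, at 7404 CPM against 10931 CPM in APOE2, a ratio of 0.677 (0.661 to 0.694). Inside G-MDSC 2 the ratio was 0.978 (0.954 to 1.00), from 61939 CPM in APOE4 and 63361 CPM in APOE2. G-MDSC 2 made up 11.9% of the MDSC UMIs in APOE4 and 17.2% in APOE2, and 3.51% and 3.99% of the MDSC cells. M-MDSC 2 made up 23.8% of the MDSC cells in APOE4 and 4.96% in APOE2. The number of cells of a label and the UMIs per cell both enter the summed level. What set the UMIs per cell was not tested. The ratio in the class and the ratio in the label are 2 different quantities. Lcn2 behaved alike, with a class ratio of 0.744 (0.710 to 0.779) and a ratio of 1.03 (0.981 to 1.09) in G-MDSC 2.

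Mmp8 was the member that differed most inside a label while resting on many cells. In G-MDSC 2 it was 3353 CPM (3097 to 3625) in APOE4 and 1426 CPM (1282 to 1582) in APOE2, a ratio of 2.35 (2.06 to 2.69). In G-MDSC 1 it was 723 CPM (620 to 839) in APOE4 and 419 CPM (344 to 505) in APOE2, a ratio of 1.73 (1.35 to 2.21). The ratio was 1.16 (0.845 to 1.59) in M-MDSC 1 and 1.60 (0.636 to 5.15) in M-MDSC 2, where both intervals include 1. Mmp8 UMIs were in 24 of 28 G-MDSC 2 cells of APOE4, 85.7% (67.3 to 96.0), and in 21 of 29 of APOE2, 72.4% (52.8 to 87.3). Among G-MDSC 2 cells with at least 1 Mmp8 UMI, the level was 4424 CPM in APOE4 and 2277 CPM in APOE2. No cell held more than 6.78% of the Mmp8 UMIs of G-MDSC 2 in APOE4 or 8.96% in APOE2. Without cells of 3 or more C1q UMIs, the log2 ratio was 1.17 in place of 1.23, and with each cell thinned to 1000 UMIs it was 0.92.

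Mmp9 was nearer to even. Its ratio was 1.39 (1.19 to 1.63) in G-MDSC 2, 0.956 (0.833 to 1.10) in G-MDSC 1 and 1.27 (1.15 to 1.40) in M-MDSC 1. S100a8 was 111876 CPM in APOE4 and 104546 CPM in APOE2 in G-MDSC 2, a ratio of 1.07 (1.05 to 1.09), and S100a9 had a ratio of 1.09 (1.08 to 1.11). In M-MDSC 1 both were lower in APOE4, with ratios of 0.847 (0.826 to 0.869) for S100a8 and 0.868 (0.851 to 0.886) for S100a9. In G-MDSC 1 the ratios were 1.02 (0.993 to 1.05) and 1.02 (1.00 to 1.04). Over the class they were 0.843 (0.833 to 0.853) and 0.861 (0.853 to 0.870). Without cells of 3 or more C1q UMIs, the log2 ratios in G-MDSC 2 were 0.021 for S100a8 and 0.056 for S100a9. No measure of variation between mice stands beside these small departures from 1.

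By the 2-fold rule, few members differed between the genotypes. In the summed MDSC cells 1 of 9 measured members was at least 2-fold higher in APOE4, where 4.82% of 6727 genes were, and 0 of 9 were at least 2-fold lower, where 4.49% were. The 1 was Elane, whose 30 UMIs came from 1 cell. In G-MDSC 2, Elane and Mmp8 were at least 2-fold higher, 2 of 9 against 5.98% of 2306 genes, and 0 of 9 were lower (background 7.24%). In G-MDSC 1 it was 0 of 6 in either direction (3.95% higher and 2.97% lower over all genes), and in M-MDSC 1 also 0 of 6 (6.18% and 3.32%). In M-MDSC 2 only Lcn2 was at least 2-fold higher, 1 of 5 (15.3%), with 137 UMIs in APOE4 and 4 in APOE2, and 0 of 5 were lower (6.08%). With 1 library per genotype none of these counts is a test.

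**Figure D5:**
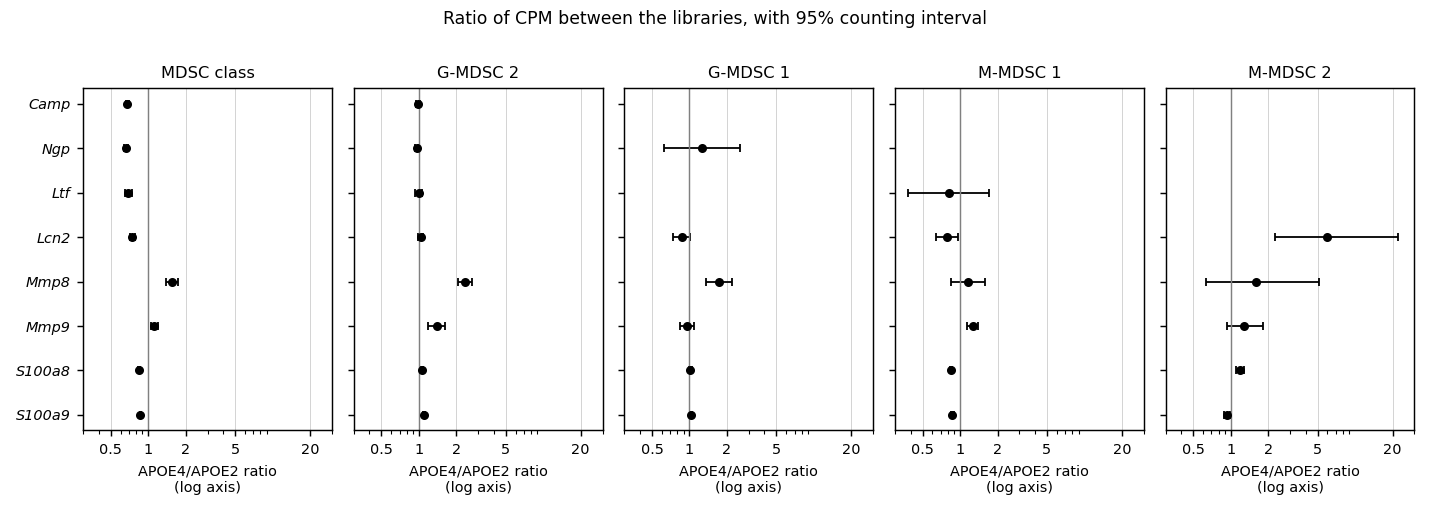
APOE4/APOE2 ratio of CPM (log axis) for 8 members with 95% counting intervals, in the summed MDSC cells and in each label; members under 20 UMIs over both libraries, or with 0 in 1 library, are left out, as are Mpo and Elane. Camp, Ngp, Ltf and Lcn2 lie left of 1 in the class and near 1 in G-MDSC 2, and Mmp8 lies right of 1 in G-MDSC 2 (2.35) and G-MDSC 1 (1.73).

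The other lists were also compared between the genotypes in G-MDSC 2, where 5.98% of all measured genes were at least 2-fold higher in APOE4 and 7.24% at least 2-fold lower. Of 10 measured early neutrophil genes, 1 was at least 2-fold higher in APOE4 and 0 lower, with a median log2 ratio of 0.16. Of 16 measured late genes, 2 were higher and 0 lower (median 0.36). Both late genes were chemokines, Ccl3 with 492 CPM in APOE4 and 12 CPM in APOE2, and Ccl4 with 841 and 67.9 CPM. Of 15 other specific, gelatinase and secretory granule genes, 1 was higher and 0 lower (median 0.15). Over all measured genes with UMIs in both libraries the median was -0.02. Of the 4 measured cell cycle genes, 2 were higher and 1 lower. Of 5 measured S100 genes outside the pair, 0 were higher and 2 lower, S100a10 with 63.5 CPM in APOE4 and 415 CPM in APOE2 and S100a4 with 122 and 248 CPM. Of 6 measured receptors and inhibitors, 0 were higher and 1 lower, Lrp1, an endocytic receptor, with 1 UMI in APOE4 and 23 in APOE2. Of 3 measured granulocyte transcription factors 0 differed by that rule. Macrophage and monocyte markers were lower with them, 4 of 4 and 3 of 4 measured, and their part in these values was not tested. Among other azurophil genes only Prtn3 was measured, with 41 UMIs in APOE4 and 2 in APOE2, all 41 from the cell with Elane.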

How the data were processed

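Droplet single-cell RNA sequencing (10x 3′ v3, per the labels) was analysed in 1 pooled library for APOE4 and 1 for APOE2. Both matrices give unnormalized UMI counts, produced by the authors with Cell Ranger 3.0.1 on mm10, per the file headers and the submitters' processing notes. For each kept cell, the authors' deposited table lists its library, cell type name, UMI count and percent of mitochondrial UMIs. The submitters' processing notes name Seurat 3.0.2 for it, and the cell filters were not given in the sources used here. Cells were kept as labelled, with no doublet caller run.

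UMIs were summed per label and library and divided by the label's total (CPM). Ratios carry exact conditional binomial 95% intervals. With 1 library per genotype there is no test, and intervals and floors (3 UMIs for a count of 0) cover counting error only. A gene counted as measured had at least 20 UMIs over both groups compared, and as different at 2-fold. Counts and medians of the lists other than the members add 0.5 to each UMI count. Shares and medians over all genes add nothing, and those medians leave out genes with a count of 0 in either group. All 10 members are reported everywhere; other lists are given by counts, with up to 4 members of most UMIs named; a few further genes, among them Retnlg, Cxcr2 and Prtn3, were named after their values were seen. Members, lists and motifs were chosen with earlier results of these data known, and the motif spelling after several others were tried. The intervals were checked on simulated counts. Promoters are RefSeq sequences, and positions GENCODE M21. Alternatives were thinning to 1000 UMIs, other denominators, weights and scalings, and leaving out cells; leaving out cells with 3 or more C1q UMIs was chosen after seeing the data. Python 3.11.15, numpy 2.4.6, pandas 2.3.3, scipy 1.17.1 and matplotlib 3.10.9 were used.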

Additional observations from a re-analysis of the deposited data

Results flagged for a closer look

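The APOE4/APOE2 ratio of some members lay above 1 in one label and below 1 in another, each beyond its counting interval. For Lcn2 it was 5.94 in M-MDSC 2 (137 UMIs in APOE4, 4 in APOE2) and 0.786 in M-MDSC 1. For S100a8 it was 1.07 in G-MDSC 2, 1.19 in M-MDSC 2 and 0.847 in M-MDSC 1. For S100a9 it was 1.09 in G-MDSC 2 and 1.02 in G-MDSC 1, and 0.868 in M-MDSC 1 and 0.928 in M-MDSC 2. Without the cells with 3 or more C1q UMIs, the log2 ratios of S100a8 and S100a9 in G-MDSC 2 were 0.021 and 0.056. The differences between labels were not tested. In the APOE2 library, 1 barcode without an authors' label held 62 UMIs of Camp, Ngp and Ltf among 780 UMIs, with 251 of S100a8 and S100a9, while 0 of 304 such barcodes of APOE4 held 10 or more UMIs of the 3 genes.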

How the results depend on the processing

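All values here are log2 ratios. For APOE4/APOE2 over the MDSC class, giving the 4 labels equal weight turned summed Camp, Ngp and Ltf (-0.56 as reported) to 0.26. Lcn2 (-0.43) turned to 0.48. Taken singly, Ngp was at 0.30, Ltf at 0.16 and S100a8 at 0.034. Camp taken singly did not turn and kept its negative sign (-0.55 as reported). Outside G-MDSC 2, Camp had only 0 to 2 UMIs per label and library. The same weighting moved Mmp8 and Mmp9 (0.31) to 0.45 and S100a8 and S100a9 (-0.23) to -0.013. Equal weight removes the difference in label shares by construction. It also gives M-MDSC 2 as much weight as the other labels. There the 3 genes had 18 UMIs in APOE4 and 1 in APOE2, and Lcn2 had 137 and 4. The setting adds 0.5 to each count. Without that, the 3 genes gave -0.033, 0.18, -0.21 and 1.64 in G-MDSC 2, G-MDSC 1, M-MDSC 1 and M-MDSC 2. Lcn2 gave 0.046, -0.20, -0.35 and 2.57 in the same order. Thinning to 1000 UMIs gave -0.43 for the 3 genes, -0.24 for Lcn2, 0.18 for the metalloproteinases and -0.17 for calprotectin. Weighting cells equally gave -0.39, -0.25 and, for calprotectin, -0.16. Without the 5% of cells with most UMIs the values were -0.77, -0.50 and, for calprotectin, -0.27. Without the 1% of cells with most of the summed UMIs they were -0.70 for the 3 genes and -0.26 for calprotectin, which was also -0.26 with the members left out of the total.

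For Camp, Ngp and Ltf in G-MDSC 2 against the other MDSC labels (10.60 in APOE4, 10.79 in APOE2), leaving the members out of the total gave 11.14 and 11.28, and leaving out the top 1% of cells 11.42 and 11.81. For calprotectin in the MDSC class against all other cells of APOE4 (7.47), values were 7.84 thinned, 7.60 with the members out of the total, 7.63 without the top 5%, 7.29 under 5% mitochondrial UMIs, 7.82 with equal cells and 10.44 without the top 1%. In APOE2 (8.44) they were 8.19, 8.61, 8.39, 8.11, 8.12 and 10.61 in the same order. Between the genotypes, the APOE4/APOE2 value of S100a9 in G-MDSC 1 (0.034) changed sign. It was -0.012 thinned and -0.028 without the top 5%.

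The cause of the other moves was not tested. Leaving out cells with 3 or more C1q UMIs, a choice made after seeing the data, reversed none of these. No paired analysis was possible because each genotype has 1 library. Depth limits the M-MDSC 2 values of APOE2, which rest on 36 cells.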

Other observations

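Of 12 genes of the type I interferon response, 11 were measured over the MDSC class and 11 of the 11 were at least 2-fold higher in APOE4, with a median log2 ratio of 2.42, against 4.82% of all genes. The ubiquitin-like Isg15 had 2487 CPM in APOE4 and 649 CPM in APOE2, and the chemokine Cxcl10 had 894 and 55.7 CPM. In G-MDSC 2 it was 5 of 5 measured (all genes 5.98%), and in G-MDSC 1 5 of 7 (3.95%). In M-MDSC 2 it was 4 of 11 (15.3%), with a median of 0.39, and Isg15 had 7590 CPM in APOE4 and 6620 CPM in APOE2. In M-MDSC 1 it was 11 of 11 (6.18%), with a median of 1.78. M-MDSC 2 held 190 cells in APOE4 and 36 in APOE2.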
